A study of Drosophila melanogaster with 8 samples.

Results

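Cultured Drosophila L57 cells exposed to juvenile hormone III (JH III) for 6 h were compared with cells given the solvent DMSO. The comparison rests on 4 of the 8 arrays of the study, the 2 whose labels give JH III for 6 h and the 2 whose labels give DMSO. The other 4 arrays, 2 each at 3 h and 12 h, served to estimate the spread and to place the 6 h values in time. Exposure was to 1 µM JH III in all treated groups, and the DMSO arrays stand for 0 h in the series text, so the labels give no solvent control of the same duration. All arrays held RNA of whole cultures, grown with bovine serum. The source label of DMSO replicate 1 also names embryos, although its growth protocol is that of the cell line. Nothing in the labels places the replicates in separate cultures, so p-values measure the spread between arrays, which may be technical.

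JH III is a sesquiterpenoid hormone that holds insect larvae in the larval state and later acts in reproduction. Its receptors in Drosophila are the paired bHLH-PAS proteins Met and gce, which bind the coactivator taiman and switch on Kr-h1, a zinc finger gene that blocks metamorphosis. L57 is a Drosophila cell line, and cultured cells receive the hormone from the medium, apart from the glands that make it in the animal.

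Values are MAS5 signals, which summarise the brightness of the short probes of 1 probe set on a linear scale. Trimmed means of the 8 deposited arrays ran from 373.6 to 379.9, so a change is relative to the rest of each array. Of 13966 probe sets that were not array controls, 10815 were readable on both 6 h arrays. The remainder lay in 2 stretches of 6 h replicate 2 that held 3146 zeros and 5 other values (4 of them impossible signals), and they were treated as missing. Of the readable probe sets 6489 were bright enough to test, and they covered 5268 genes. The median over probe sets was a signal of 70.9 and 72.9 with DMSO and 81.4 and 86.0 at 6 h. The replicates at 6 h correlated across readable probe sets at r = 0.977, arrays of different groups at 0.965 to 0.977. RNA integrity was read from control probe sets at the 3' and 5' ends of a transcript, whose ratio for actin was 0.900 and 0.945 with DMSO and 0.980 and 1.12 at 6 h. It was 2.26 and 2.18 against 2.33 and 2.29 for Gapdh, and 1.48 and 1.74 against 1.58 and 1.79 for eIF4A. Whether RNA integrity bears on any result below was not tested.

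After 6 h of JH III the signals of lncRNA:CR42862, bun, fok, the fatty acid synthase gene FASN1 and the hemocyte gene Hml were higher than with DMSO. Those of the pyruvate carboxylase gene PCB, of CG5254, of the chaperone gene Hsp68 and of 32 of 49 mitochondrial ribosomal protein genes were lower. Changes were estimated on log2(signal + 25), a scale that understates the change of dim probe sets, in 1 limma fit of all 8 arrays. A change was called at a Benjamini-Hochberg adjusted p under 0.05 over the 6489 probe sets, two-sided, and errors are standard errors of that fit. By this rule 756 probe sets (11.7%) differed, 398 higher (6.13%) and 358 lower (5.52%). The median called rise was 0.68 (1.60-fold) and the median called fall was -0.49 (1.40-fold), while 77 probe sets (1.19%) rose and 17 (0.262%) fell at least 2-fold. Both 6 h arrays lay above both DMSO arrays for 2104 probe sets (32.4%) and below them for 1488 (22.9%). By gene, 5.58% of the 5268 genes were called higher and 6.06% lower, the shares to set beside each list count below. With each array centred on its own median the split of calls was 222 higher and 785 lower. Centring moved the median change of all tested probe sets from 0.06 to -0.10, so every value below is relative to the authors' scale. Of the 756 calls 203 (113 higher, 90 lower) also passed with each of the 8 arrays left out in turn, and the count ran from 267 without DMSO replicate 2 to 814 without 12 h replicate 1. For genes named below whose call ended without an array, the arrays are given for the gene or for its group of calls.

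**Figure D1:**
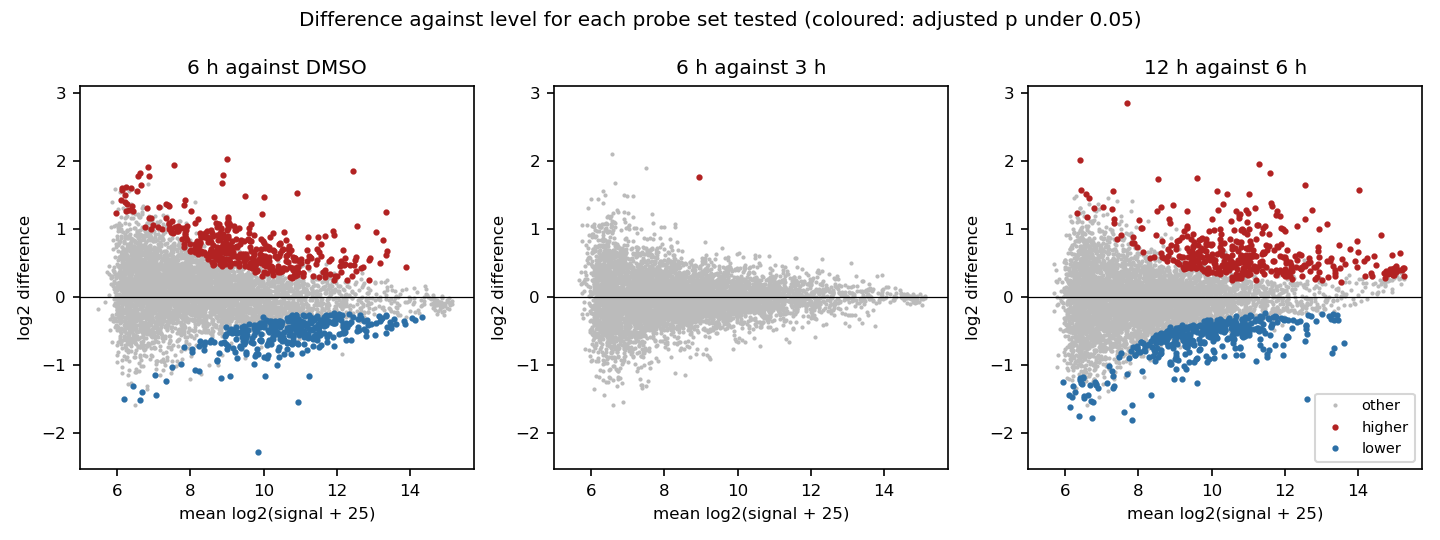
Difference against mean level, both on the log2(signal + 25) scale, for each of the 6489 probe sets tested in 6 h against DMSO, 6 h against 3 h and 12 h against 6 h; red and blue points passed at adjusted p under 0.05. In 6 h against DMSO 398 points lie in red and 358 in blue, in 6 h against 3 h 1 point passed, and in 12 h against 6 h 408 lie in red and 392 in blue.

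The largest rise was that of lncRNA:CR42862, a long non-coding RNA gene. Its signals on 1 probe set were 229 and 229 with DMSO, 1284 and 1046 after 3 h, 1045 and 968 after 6 h, and 485 and 526 after 12 h. Both 6 h arrays stood far above the DMSO pair and the 12 h arrays lay between, and the gene rose 4.06-fold at 6 h (log2 change 2.02 ± 0.12, adjusted p = 9.19e-05). Its other probe set read 275 and 193 with DMSO and 872 and 848 at 6 h, a rise of 1.79 ± 0.15. The signals of bun, which encodes a TSC22-family regulator of transcription and growth, were 255 and 217 with DMSO, 837 and 854 after 3 h, 805 and 806 after 6 h, and 456 and 427 after 12 h. The 6 h pair lay close together and did not overlap the DMSO pair, with a rise of 1.67 ± 0.12 (adjusted p = 0.000191). For fok the signals were 1162 and 1074 with DMSO, 2597 and 2700.3 after 3 h, 3320.4 and 3187 after 6 h, and 1969.7 and 1453 after 12 h, again without overlap, and the rise was 1.52 ± 0.12 (adjusted p = 0.000337). Pkc98E, a protein kinase C gene, went from 38.1 and 30.0 with DMSO to 219 and 175 at 6 h on 1 probe set, a rise of 1.91 ± 0.31 (adjusted p = 0.00511). Its other probe set gave 0.50 (adjusted p = 0.206), so the 2 probe sets of this gene disagree on the call. These 5 probe sets passed without each array in turn.

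Another 10 of the 15 largest rises passed with all arrays and not without some of them. Besides the arrays named next, some of these calls ended without DMSO replicate 1, 6 h replicate 2 or a 3 h array, and that of rno without either 12 h array. All 10 calls ended without DMSO replicate 2 (adjusted p 0.0501 to 0.204) and without 6 h replicate 1 (0.0502 to 0.157). Of these, TMEM216, a gene of the ciliary transition zone, read 89 and 55.6 with DMSO and 370.2 and 314 at 6 h (1.93 ± 0.48, adjusted p = 0.0324), and its other probe set rose by 0.74 (adjusted p = 0.0115). The bonus gene, bon, which encodes a TIF1-family cofactor of transcription, read 27.3 and 27.9 with DMSO and 189 and 137 at 6 h (1.82 ± 0.44, adjusted p = 0.0294). A further probe set of the gene gave 0.19 (adjusted p = 0.498). For mthl4, a methuselah-like receptor gene, the signals were 63.9 and 19.8 with DMSO and 177 and 208 at 6 h (1.78 ± 0.33, adjusted p = 0.00969). The homeobox gene cad, which patterns the posterior embryo, read 18.8 and 26.9 with DMSO and 146 and 98.4 at 6 h (1.61 ± 0.32, adjusted p = 0.012). CG32053 and CG3517 read 156 and 143 and 149.5 and 156 at 6 h against 23.9 and 28.4 and 39.1 and 25.2 with DMSO, rises of 1.77 ± 0.35 and 1.65 ± 0.33. The phosphodiesterase gene Pde8 rose by 1.56 ± 0.39, the polarity scaffold gene scrib by 1.51 ± 0.39, rno, which encodes a PHD finger protein, by 1.60 ± 0.43, and CG43367 by 1.62 ± 0.42. The other probe sets of CG43367 gave 0.23 and 0.33 and did not pass (adjusted p = 0.772 and 0.542). In each of these 10 probe sets both 6 h arrays exceeded both DMSO arrays.

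PCB, which encodes pyruvate carboxylase, the mitochondrial enzyme that makes oxaloacetate from pyruvate, fell furthest. Its signals were 1966 and 2049 with DMSO, 511 and 401 after 3 h, 392 and 402 after 6 h, and 1112 and 1756 after 12 h. Neither 6 h array came near the DMSO pair, and the gene was 4.82-fold lower at 6 h (-2.27 ± 0.19, adjusted p = 0.000346). CG5254 read 3289 and 3401 with DMSO, 1383 and 1487 after 3 h, 1067 and 1200.3 after 6 h, and 2671 and 2471 after 12 h, a fall with no overlap between groups (-1.54 ± 0.09, adjusted p = 5.68e-05). ND-B12, an accessory subunit gene of respiratory complex I, read 3943 and 3313 with DMSO, 1711 and 1514 after 3 h, 1654 and 1574 after 6 h, and 5765 and 5738 after 12 h. It fell by 1.15 ± 0.10. For Hsp68, a heat-inducible member of the Hsp70 chaperone family, the signals were 1516 and 1573 with DMSO, 675 and 678 at 6 h, and 1408 and 1305 after 12 h. Both 6 h arrays lay below every DMSO and 12 h array, and the gene fell by 1.16 ± 0.09 (adjusted p = 0.000251). CG10512 fell by 1.00 ± 0.11 (adjusted p = 0.00103), from 1721 and 1981 to 878 and 943. These 5 falls passed without each array in turn.

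The other 10 of the 15 largest falls ended as calls without DMSO replicate 2 (adjusted p 0.0585 to 0.243), and 9 of them also without DMSO replicate 1. The exception to the latter was Pex5, the receptor gene for peroxisomal protein import, which read 301 and 471 with DMSO and 171 and 165 at 6 h (-1.06 ± 0.28, adjusted p = 0.0379). CG3603 read 420.1 and 403 with DMSO and 230.1 and 141 at 6 h (-1.09 ± 0.20, adjusted p = 0.0093), and CG2145 176 and 110.05 with DMSO and 28.5 and 38.1 at 6 h (-1.51 ± 0.37, adjusted p = 0.0326). AANATL2, of the arylalkylamine N-acetyltransferase family, fell by 1.44 ± 0.39 and CG1492 fell by 1.39 ± 0.27. The proton channel gene OtopLa fell by 1.31 ± 0.31 with 1 probe set and gave -0.17 with the other (adjusted p = 0.785). For smal, which encodes a discoidin domain receptor, 1 probe set fell by 1.23 ± 0.25 while the others gave -0.28 and -0.26 and did not pass. CG10953 fell by 1.19 ± 0.33, CG12814 fell by 1.14 ± 0.30 and CG7420 fell by 1.02 ± 0.20. The 2 arrays at 6 h were far apart for CG10953, at 433 and 178. Some of these 10 calls also ended without either 3 h array or 1 or both 6 h arrays, and that of CG10953 without either 12 h array.

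**Figure D2:**
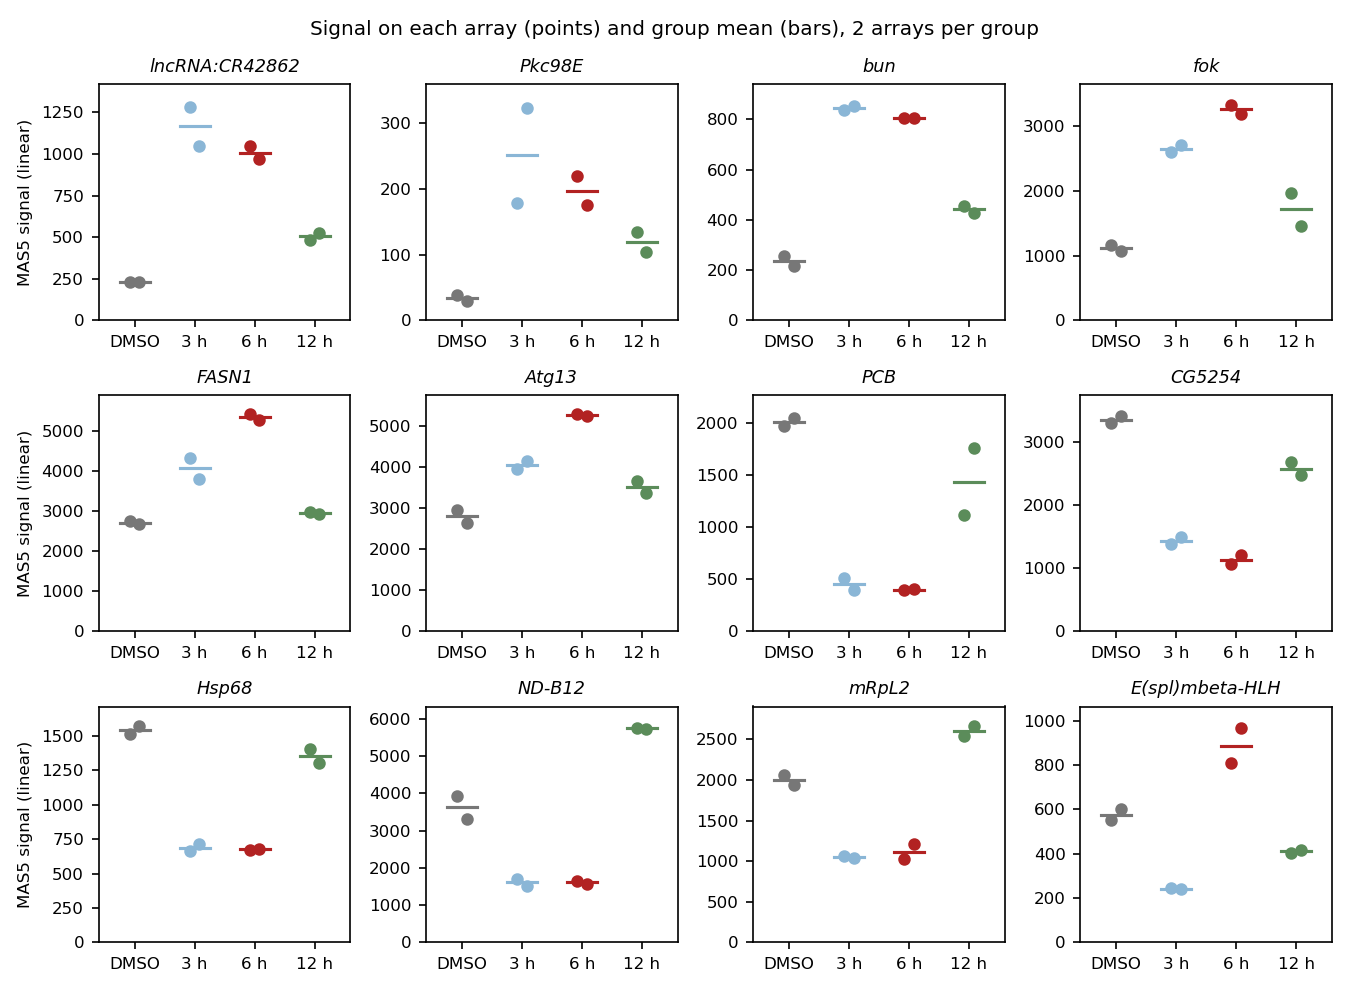
MAS5 signal (linear axis from 0) of 12 probe sets on each array (points) with the mean of the 2 arrays (bars) for DMSO and for 3, 6 and 12 h of JH III. At 6 h the pair of points lies apart from the DMSO pair in each panel. For ND-B12 and mRpL2 the 12 h pair lies above the DMSO pair, and for E(spl)mbeta-HLH the 3 h and 6 h pairs lie on opposite sides of it.

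Genes of JH reception and known JH response gave 0 calls by limma at 6 h among the 7 that could be tested, of 15 on the array and 9 readable on both 6 h arrays (0 higher and 0 lower at an unadjusted p under 0.05). Calls were 0 higher and 2 lower with median centring, where Rack1 and Jheh2 passed. Their median change was -0.13 (-0.29 with median centring), against 0.05 for all genes. Met, the receptor gene, read 105 and 36.3 with DMSO and 134 and 145 at 6 h, so the DMSO arrays themselves were wide apart (0.88 ± 0.48, adjusted p = 0.303). Its paralog gce read 269 and 214 with DMSO and 166 and 214 at 6 h and the groups touched (-0.31 ± 0.19, adjusted p = 0.35); a second probe set gave 0.64 (adjusted p = 0.0807). The coactivator gene tai read 142 and 135 with DMSO and 113 and 146 at 6 h (-0.09 ± 0.23, adjusted p = 0.843), with a second probe set at -0.65 (adjusted p = 0.549). For br, the Broad zinc finger gene of metamorphosis, the signals were 82.2 and 145 with DMSO and 89 and 35.9 at 6 h (-0.70 ± 0.37, adjusted p = 0.279), with -0.35 on another probe set. One more, readable on 1 of the 6 h arrays, went the other way, at 67 and 67.3 with DMSO and 141 on 6 h replicate 1 (0.85 ± 0.31, adjusted p = 0.114). Rack1, whose product binds protein kinase C, gave -0.13 ± 0.09, adjusted p = 0.416, the JH epoxide hydrolase gene Jheh2 -0.11 ± 0.07, adjusted p = 0.362, and the amino acid transporter gene mnd -0.17 ± 0.18, adjusted p = 0.624. A p-value above the threshold does not show that these genes stayed level. The count of 0 calls also leaves out JhI-26, JhI-21, Kr-h1, ftz-f1, Nup358 and usp, which were readable on 6 h replicate 1 only. On that array their changes from DMSO were 0.92, 0.72, 0.34, 0.61, 0.46 and 0.11 in that order. They are taken up under other observations.

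Genes of the mitochondrial ribosome, the organelle's own protein-making machine, moved down together. Of 49 tested (64 on the array) 32 fell and 0 rose by limma (1 higher and 37 lower at an unadjusted p under 0.05), where 6.06% of all genes fell and 5.58% rose. The changes of 46 of the 49 were below 0, where 2366 of all 5268 genes lay below 0. Values of the 49 ran from -0.83 to 0.30 with a median of -0.44. Median centring gave 39 falls and a median of -0.61, and quantile normalization a median of -0.38. The count of falls was 16 without DMSO replicate 2, its lowest when 1 array was left out. The large subunit gene mRpL2 read 2063 and 1942 with DMSO, 1026 and 1207 at 6 h, and 2538 and 2659 after 12 h. The gene fell by 0.83 ± 0.09 (adjusted p = 0.00109). The 6 h pair lay below both other pairs. Signals of mRpL45 were 2643 and 2669.9 with DMSO and 1829 and 1714 at 6 h (-0.58 ± 0.07, adjusted p = 0.0016). For mRpL49 they were 1781 and 1915 with DMSO and 1183 and 1195 at 6 h (-0.63 ± 0.08, adjusted p = 0.0016). mRpL30 read 2466 and 2337 with DMSO and 1617 and 1628 at 6 h (-0.56 ± 0.07, adjusted p = 0.00162). All 4 passed without each array in turn. Summed over the 49 genes, signal was 101446 and 102583 with DMSO, 74497 and 78371 at 6 h and 105483 and 108668 at 12 h. In whole cultures, less of a transcript per cell and fewer cells that carry it cannot be told apart.

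Subunit genes of the respiratory chain with a call lay lower. Of 24 tested genes of complex I, which takes electrons from NADH, 10 fell and 0 rose by limma (0 higher and 17 lower at an unadjusted p under 0.05; median -0.22, 5 falls without DMSO replicate 2; 0 higher and 18 lower with median centring). Besides ND-B12, ND-15 read 6186 and 5853 with DMSO and 3844 and 3898 at 6 h (-0.63 ± 0.06, adjusted p = 0.000602). ND-B14.7 read 3741 and 3805 with DMSO and 2305 and 2232 at 6 h (-0.73 ± 0.07, adjusted p = 0.000668). ND-B18 fell by 0.72 ± 0.08 (adjusted p = 0.00109), from 4784 and 5113 to 2855 and 3142. In none of them did the 6 h arrays reach the DMSO arrays. Of 30 tested genes of complexes II to V 12 fell and 0 rose by limma (1 higher and 15 lower at an unadjusted p under 0.05; median -0.26; 0 higher and 17 lower with median centring), with 4 falls left without DMSO replicate 1. COX5A, a subunit gene of cytochrome c oxidase, read 12351 and 12725 with DMSO and 8579.98 and 8833 at 6 h (-0.52 ± 0.06, adjusted p = 0.00156). The Rieske iron-sulfur protein gene of complex III, RFeSP, read 2156 and 2136 with DMSO and 1472 and 1427 at 6 h (-0.56 ± 0.07, adjusted p = 0.00194). The ATP synthase genes ATPsynF and ATPsyndelta fell by 0.39 ± 0.06 and fell by 0.43 ± 0.07, and the latter call ended without DMSO replicate 1 (adjusted p = 0.0561). With the variance trend left out of the fit, the adjusted p was 0.0517 for COX5A and 0.0823 for ATPsynF. Median centring and quantile normalization kept both medians below 0 (-0.38 and -0.15 for complex I, -0.42 and -0.21 for complexes II to V).

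Among 25 tested genes of mitochondrial import, mitochondrial DNA and dynamics 2 fell and 0 rose by limma (1 higher and 4 lower at an unadjusted p under 0.05), with a median of -0.12 (0 higher and 6 lower with median centring). They were porin, the outer membrane channel gene, at 13929 and 15008 with DMSO and 11171 and 10823 at 6 h (-0.39 ± 0.07, adjusted p = 0.00777), and the import chaperone gene Tim8 (-0.24 ± 0.07, adjusted p = 0.0477). These calls all ended without DMSO replicate 2 (adjusted p 0.085 to 0.209), and some also without DMSO replicate 1, either 3 h array or either 6 h array (up to 0.18).

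**Figure D3:**
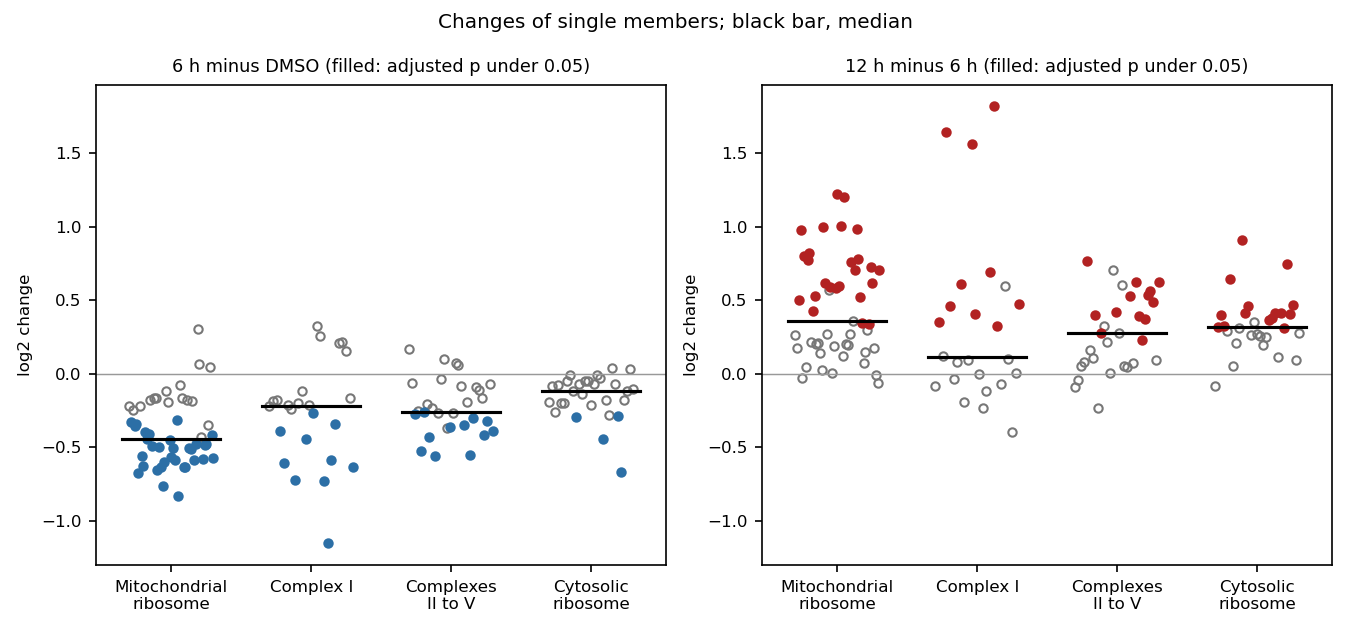
Log2 change of each tested gene of 4 lists (points; filled where adjusted p was under 0.05) with the median (black bar), at 6 h against DMSO on the left and at 12 h against 6 h on the right. The lists are the mitochondrial ribosome, complex I, complexes II to V and the cytosolic ribosome. On the left no filled point lies above 0, and the medians lie in that order at -0.44, -0.22, -0.26 and -0.12. On the right no filled point lies below 0. Both panels use the 6 h arrays.

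Of 29 tested genes of the cytosolic ribosome 4 fell and 0 rose by limma (0 higher and 8 lower at an unadjusted p under 0.05). The median was -0.12, -0.01 with quantile normalization and -0.28 with median centring, which called 0 higher and 13 lower, and 1 fall was left without DMSO replicate 1. RpL24-like, a relative of the ribosomal protein gene RpL24 that acts in ribosome assembly, read 4203 and 4407 with DMSO, 2698 and 2709.8 at 6 h, and 4480.3 and 4617 after 12 h. It fell by 0.67 ± 0.06 (adjusted p = 0.00057). RpL7-like fell by 0.44 ± 0.09, RpS29 fell by 0.29 ± 0.08 and RpL23 fell by 0.30 ± 0.08. These 3 calls all ended without either DMSO array or 6 h replicate 2 (adjusted p 0.0631 to 0.28), and some also without either 3 h array or 6 h replicate 1 (up to 0.187). Of 18 tested genes of ribosome biogenesis 5 fell and 0 rose by limma (1 higher and 7 lower at an unadjusted p under 0.05; median -0.20, 2 falls without DMSO replicate 2; 0 higher and 9 lower with median centring). Ski6, an exosome subunit gene, read 1161 and 1271 with DMSO, 668 and 676 at 6 h, and 1516 and 1533 after 12 h. The gene fell by 0.83 ± 0.09 (adjusted p = 0.000997), and Ns3, which encodes a GTPase related to nucleostemin, fell by 0.59 ± 0.08. The exosome gene Rrp42 fell by 0.50 ± 0.08 and Nnp-1 fell by 0.28 ± 0.07. The fifth was Sas10, chosen for naming after its value was seen, which fell by 0.70 ± 0.17. The last 3 calls all ended without DMSO replicate 2 (adjusted p 0.054 to 0.174), and some also without DMSO replicate 1 or either 6 h array (up to 0.136).

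Of 25 translation factor genes 2 were called higher and 2 lower, near the shares of all genes, 5.58% and 6.06% (median -0.01, 0.00 with quantile normalization; 1 higher and 6 lower with median centring). The poly(A)-binding protein gene pAbp read 6203 and 6239 with DMSO, 16949.5 and 15308 after 3 h, 11424 and 12702 after 6 h, and 11434 and 12396 after 12 h. It rose by 0.95 ± 0.08 (adjusted p = 0.000346) without overlap. A probe set readable on 1 of the 6 h arrays rose by 0.38 ± 0.07 (adjusted p = 0.0142). For eIF5B, a ribosomal subunit joining factor gene, 1 probe set rose by 0.42 ± 0.10 and the others gave 0.23 and 0.20 without passing. The initiation factor 3 genes eIF3g1 and eIF3f1 fell by 0.31 ± 0.07 and fell by 0.31 ± 0.08. Of 19 aminoacyl-tRNA synthetase genes, which charge tRNAs, 1 rose, the mitochondrial AspRS-m (0.54 ± 0.14), and 1 fell, TyrRS (-0.44 ± 0.10), with 0 higher and 5 lower with median centring. Apart from pAbp, the calls of this paragraph all ended without either DMSO array or either 6 h array (adjusted p 0.0566 to 0.2), and some also without either 3 h array (up to 0.0514).

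The lipid synthesis genes that were called lay higher at 6 h. Of 12 tested genes of fatty acid synthesis, lipid storage and the SREBP system, 4 rose and 0 fell by limma (6 higher and 0 lower at an unadjusted p under 0.05; 3 higher and 0 lower with median centring). Changes were above 0 in 10 of 12, where 2902 of all 5268 genes lay above 0. The median of the list was 0.37 (0.21 with median centring). FASN1, the fatty acid synthase gene, read 2747 and 2677 with DMSO, 4318 and 3808 after 3 h, 5414 and 5278 after 6 h, and 2967 and 2938 after 12 h. The 6 h pair exceeded every other array, and the rise was 1.96-fold (0.97 ± 0.07, adjusted p = 0.000252). Lsd-2, which encodes a coat protein of lipid droplets, read 867 and 837 with DMSO, 1355 and 1415 after 3 h, 1586 and 1739 after 6 h, and 1123 and 1035 after 12 h, also highest at 6 h (0.94 ± 0.09, adjusted p = 0.000534). SREBP, the transcription factor gene that drives fatty acid synthesis in flies, read 1786 and 1866 with DMSO and 3105 and 2824 at 6 h (0.69 ± 0.10, adjusted p = 0.0027; 0.0525 without the variance trend). ACC, acetyl-CoA carboxylase, read 704 and 636 with DMSO and 889 and 959 at 6 h. The gene rose by 0.45 ± 0.11 (adjusted p = 0.0312), and the call ended without either DMSO array or either 6 h array (adjusted p up to 0.192). The 6 tested genes of the mevalonate pathway and sterol trafficking gave 0 calls by limma (0 higher and 0 lower at an unadjusted p under 0.05), with changes from -0.29 to 0.15.

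Carbon metabolism genes went both ways, with 5 of 21 genes of glycolysis and the TCA cycle lower and 3 higher (2 higher and 9 lower with median centring). Besides PCB, ScsbetaG, a subunit gene of succinyl-CoA synthetase, read 4226 and 4262 with DMSO, 2891 and 2952 at 6 h, and 5295 and 4745 after 12 h. It fell by 0.54 ± 0.07 (adjusted p = 0.00212). The glycolytic mutase gene Pglym78 fell by 0.48 ± 0.07, from 1929 and 1895 to 1335 and 1385. Pepck1, which makes phosphoenolpyruvate from oxaloacetate, fell by 0.45 ± 0.08, a call that ended without DMSO replicate 2 (adjusted p = 0.0684). Without the variance trend the adjusted p was 0.0558 for both ScsbetaG and Pglym78. The remaining 4 calls were chosen for naming after their values were seen. Of these the hexokinase gene Hex-A read 248 and 310.5 with DMSO and 489 and 487 at 6 h (0.76 ± 0.15). The trehalase gene Treh, whose product splits the sugar of fly blood, read 289 and 394 with DMSO and 654 and 561 at 6 h (0.80 ± 0.16). Men-b, a mitochondrial malic enzyme gene, rose by 0.33 ± 0.08, and the ribose phosphate isomerase gene Rpi fell by 0.26 ± 0.07. These 4 calls all ended without DMSO replicate 1 or 6 h replicate 1 (adjusted p 0.0676 to 0.201), and some also without DMSO replicate 2, either 3 h array or 6 h replicate 2 (up to 0.171).

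Chaperone genes readable on both 6 h arrays were called lower or not at all. Of 12 tested heat shock and cytosolic chaperone genes 3 fell and 0 rose by limma (0 higher and 4 lower at an unadjusted p under 0.05), with a median of -0.09 that was -0.03 with quantile normalization (0 higher and 5 lower with median centring). After Hsp68, subunit genes of the actin- and tubulin-folding chaperonin followed. CCT4 read 9815 and 9928 with DMSO, 7475 and 7720.2 at 6 h, and 11087 and 10898 after 12 h. The gene fell by 0.38 ± 0.06. CCT1 read 10644 and 10887 with DMSO, 8494 and 8927 at 6 h, and 11789.6 and 12149 after 12 h. It fell by 0.31 ± 0.06. These 2 calls all ended without DMSO replicate 2 (adjusted p 0.0546 to 0.113), and some also without DMSO replicate 1 or 6 h replicate 1 (up to 0.0772). Proteasome genes fell in 3 of 23 and rose in 1 (median -0.04, -0.21 with median centring, which called 0 higher and 9 lower). By gene, 6.06% of all genes fell and 5.58% rose. The lid subunit gene Rpn6 read 1546 and 1536 with DMSO and 2157 and 1933 at 6 h. The gene rose by 0.40 ± 0.08, while Prosalpha4 (-0.44 ± 0.10), Rpt3R (-0.39 ± 0.08) and Rpn3 (-0.26 ± 0.07) lay lower. These 4 calls all ended without either DMSO array or 6 h replicate 1 (adjusted p 0.0679 to 0.229), and some also without either 3 h array or 6 h replicate 2 (up to 0.0652). Genes of endoplasmic reticulum folding and vesicle coats fell in 3 of 29 and rose in 1, beside the same shares of all genes. The median was -0.02, 0.01 with quantile normalization and -0.18 with median centring, which called 1 higher and 11 lower. Der-1, of the degradation pathway for misfolded proteins, read 3202 and 3094 with DMSO and 2038 and 2102 at 6 h (-0.60 ± 0.10). The p24-family cargo receptor genes bai and CHOp24 gave -0.37 ± 0.07 and -0.38 ± 0.08. Ire1, the sensor kinase gene of unfolded protein stress, read 1099.8 and 1072 with DMSO and 1735 and 1682 at 6 h. It rose by 0.64 ± 0.15. These 4 calls ended between them without either DMSO array or either 6 h array (adjusted p up to 0.117).

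Signalling genes of the ERK and JNK cascades lay higher in 15 of 16 tested members, with 4 calls up, 0 down by limma (6 higher and 0 lower at an unadjusted p under 0.05; 3 higher and 0 lower with median centring) and a median of 0.38 (0.21 with median centring). Among all 5268 genes 2902 changes lay above 0. The feedback inhibitor gene sty, sprouty, which restrains receptor tyrosine kinases, read 4514 and 3827 with DMSO, 10079 and 10652 after 3 h, 8623 and 8643 after 6 h, and 7561 and 7118 after 12 h. Both 6 h arrays stood well above DMSO and below the 3 h pair, and sty rose 2.07-fold (1.05 ± 0.08, adjusted p = 0.000319). The ETS repressor gene aop, which ERK inactivates, read 733 and 679.9 with DMSO, 1397 and 1204 at 6 h, and 859 and 783 after 12 h (0.85 ± 0.11, adjusted p = 0.00177). The kinase gene msn, upstream of JNK, read 538 and 504 with DMSO, 1419 and 1482 after 3 h, 1256 and 924 after 6 h, and 690.00 and 655 after 12 h (1.02 ± 0.13, adjusted p = 0.00212), with the 6 h arrays wider apart than those of DMSO. The scaffold gene cnk rose by 0.46 ± 0.11, a call that ended without either DMSO array or either 6 h array (adjusted p up to 0.138).

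In the Notch pathway 4 of 13 genes rose and 0 fell by limma (6 higher and 0 lower at an unadjusted p under 0.05; median 0.32, 0.16 with median centring, which called 3 higher and 0 lower), and no call was left without DMSO replicate 1. The coactivator gene mam read 1996 and 2378 with DMSO and 3894 and 3300.3 at 6 h (0.71 ± 0.12, adjusted p = 0.00598), with 0.29 on its other probe set (adjusted p = 0.751). The corepressor gene gro read 739 and 838 with DMSO and 1196 and 1161 at 6 h (0.57 ± 0.10, adjusted p = 0.00671), and a probe set readable on 1 of the 6 h arrays rose by 0.49 ± 0.09 (adjusted p = 0.009). Hairless, H, the antagonist of Notch signalling, rose by 0.64 ± 0.16 on 1 probe set and by 0.79 on the other. The bHLH repressor gene E(spl)mbeta-HLH, a direct Notch target, rose by 0.60 ± 0.13 (adjusted p = 0.0179). These 4 calls all ended without DMSO replicate 1 (adjusted p 0.0506 to 0.128), and some also without DMSO replicate 2, either 3 h array or either 6 h array (up to 0.185).

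Other signalling lists held few calls. Stat92E, the transcription factor gene of the JAK-STAT pathway, read 1589 and 1402 with DMSO, 2253 and 2227 at 6 h, and 1487 and 1199.7 after 12 h. The gene rose by 0.58 ± 0.11 (adjusted p = 0.00916), the 1 call among 8 tested genes of its list (median 0.54). That call ended without DMSO replicate 2 or 6 h replicate 1 (adjusted p up to 0.0816). Of 10 tested TOR and Myc genes only path passed. It encodes an amino acid transporter that promotes growth, read 425 and 372 with DMSO, 629 and 539.7 after 3 h, 848 and 779 after 6 h, and 603 and 599 after 12 h. It rose by 0.99 ± 0.12 (adjusted p = 0.00162). The 6 tested genes of the insulin pathway gave 0 calls by limma (3 higher and 0 lower at an unadjusted p under 0.05). All 6 changes were above 0 (median 0.57), where 2902 of all 5268 genes lay above 0. The 10 tested genes of the Hippo pathway and the 14 of Toll and Imd signalling also gave 0 calls by limma, with medians of 0.19 and -0.15. In the former 1 higher and 0 lower at an unadjusted p under 0.05 passed, in the latter 0 higher and 0 lower at an unadjusted p under 0.05. Of 8 tested ecdysone response genes 2 rose and 0 fell by limma (3 higher and 0 lower at an unadjusted p under 0.05; median 0.45). They were vri, a bZIP clock gene, at 298 and 192 with DMSO and 623 and 531 at 6 h (1.18 ± 0.20, adjusted p = 0.00604), and rgn, a regeneration gene. The latter read 230.1 and 208 with DMSO, 529.7 and 497 after 3 h, 468 and 418 after 6 h, and 253 and 232 after 12 h (0.94 ± 0.15, adjusted p = 0.00418). Hnf4, a nuclear receptor of lipid metabolism, read 345 and 257 with DMSO, 442 and 426 after 3 h, 548 and 555 after 6 h, and 318 and 335 after 12 h (0.84 ± 0.15, adjusted p = 0.00924), the 1 call among 9 nuclear receptor genes. The calls of vri and Hnf4 all ended without 6 h replicate 1 (adjusted p 0.0539 to 0.054), and some also without DMSO replicate 2 or 6 h replicate 2 (up to 0.0703).

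Some genes of the blood cell list were among those called higher. The list of hemocyte and scavenger receptor genes served as a cell type check, and 14 of its 28 members on the array could be tested. Of these 3 rose and 0 fell by limma (5 higher and 1 lower at an unadjusted p under 0.05; median 0.30, 0.14 with median centring, which called 2 higher and 1 lower). Among all genes 5.58% were called higher and 6.06% lower, the shares to set beside this list and the matrix genes below. Hml, hemolectin, a clotting protein gene of hemocytes, read 2116 and 2101 with DMSO, 3815 and 3919 after 3 h, 3927 and 3901 after 6 h, and 2141 and 2216 after 12 h. The gene rose by 0.88 ± 0.06 (adjusted p = 0.000191). The 3 h and 6 h arrays formed one level and the DMSO and 12 h arrays another. Pvf2, a VEGF-like growth factor gene, read 624 and 622 with DMSO, 1155 and 1024 after 3 h, 1646 and 1329 after 6 h, and 1477 and 1423 after 12 h. It rose 2.32-fold (1.22 ± 0.11, adjusted p = 0.000534), with the 12 h arrays still high. The engulfment receptor gene drpr rose by 0.37 ± 0.10, a call that ended without either DMSO array, either 3 h array or 6 h replicate 1 (adjusted p up to 0.196), while a further probe set gave 0.74 (adjusted p = 0.441). Summed signal over the 14 genes was 12184 and 12181 with DMSO, 16556 and 15982 at 6 h and 12324 and 12902 at 12 h. Of the matrix genes 2 of 8 rose and 0 fell by limma (4 higher and 0 lower at an unadjusted p under 0.05; 2 higher and 1 lower with median centring). They were LanB1, a laminin gene, at 1295 and 1206 with DMSO, 2033 and 1813 at 6 h, and 1188 and 1189.9 after 12 h (0.61 ± 0.08, adjusted p = 0.00235), and Ppn, papilin. The latter read 1402 and 1191 with DMSO, 2034 and 2062 at 6 h, and 1240.2 and 1175 after 12 h (0.65 ± 0.09, adjusted p = 0.00228).

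Markers of other tissues gave 1 call. Neuronal markers (5 of 15 tested), muscle markers (6 of 15) and fat body markers (4 of 10) held 0 calls by limma. At an unadjusted p under 0.05 the counts were 0 for neuronal markers, 2 higher and 2 lower for muscle and 1 higher and 1 lower for fat body. Of 5 tested germline markers (13 on the array) bam, a gene of germ cell differentiation, rose by 0.25 ± 0.07 (adjusted p = 0.0427), a call that ended without either DMSO array, either 3 h array or either 6 h array (adjusted p up to 0.193). Summed signal was 489 and 518 with DMSO and 582 and 496 at 6 h for neuronal markers. It was 12457 and 13385 against 14371 and 15311 for muscle, 346 and 369 against 506 and 462 for fat body, and 8404 and 8920 against 9162 and 8326 for germline markers. No tested marker was listed at 0 on any array, but the zeros of 6 h replicate 2 were set to missing and dim probe sets left out beforehand. The absence of zeros therefore says nothing about other cell types. The part of other cell types in the results was not tested.

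Autophagy and lysosome genes rose in 6 of 28 tested members and fell in 0 by limma (8 higher and 1 lower at an unadjusted p under 0.05), with a median of 0.12 (-0.04 with median centring, which called 5 higher and 1 lower). For each list of this paragraph the shares of all genes were 5.58% higher and 6.06% lower. Atg13, part of the kinase complex that starts autophagosome formation, read 2973 and 2646 with DMSO, 3972 and 4149.8 after 3 h, 5296 and 5254 after 6 h, and 3676 and 3371 after 12 h. The 6 h arrays were the highest of all 8, and the gene rose by 0.91 ± 0.08 (adjusted p = 0.00035), with 0.68 on its other probe set (adjusted p = 0.00462). The cargo adaptor gene ref(2)P, the fly p62, read 1049 and 1019 with DMSO, 1344 and 1265 after 3 h, 1835 and 1803 after 6 h, and 1197 and 1262 after 12 h (0.80 ± 0.08, adjusted p = 0.000602). The lysosomal transporter gene spin read 739.8 and 737 with DMSO, 1460.3 and 1215 at 6 h, and 852 and 889 after 12 h (0.83 ± 0.10, adjusted p = 0.00162). The gene lt, for a subunit of the HOPS complex that tethers vesicles to the lysosome, read 347 and 339.7 with DMSO, 817 and 1028 after 3 h, 767 and 673 after 6 h, and 458 and 452 after 12 h (1.01 ± 0.13, adjusted p = 0.00206). These 4 calls passed without each array in turn. The remaining calls, named after their values were seen, were the lysosomal membrane protein gene Lamp1 (0.45 ± 0.10) and Atg10 (1.35 ± 0.31). They all ended without DMSO replicate 1 or either 6 h array (adjusted p 0.0554 to 0.1), and some also without DMSO replicate 2 (up to 0.139). Vha26 was the 1 call among 13 proton pump subunit genes, at 7944 and 7739 with DMSO and 11529 and 10712 at 6 h (0.50 ± 0.08, adjusted p = 0.0035; 0.0678 without the variance trend). For that list the median was 0.06, and -0.10 with median centring, which called 1 higher and 4 lower. Among 11 amino acid transporter genes CG13248 rose by 0.42 ± 0.09 beside path, and CG1628 fell by 0.30 ± 0.08. These 2 calls all ended without either DMSO array or either 6 h array (adjusted p 0.0566 to 0.247), and some also without either 3 h array or either 12 h array (up to 0.0745).

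Chromatin regulator genes rose in 5 of 38 tested members and fell in 0 by limma (13 higher and 2 lower at an unadjusted p under 0.05), with 32 changes above 0 and a median of 0.23 (0.07 with median centring). Calls were 2 higher and 2 lower with median centring, so their direction depends on the scaling. Without that centring 5.58% of all 5268 genes were called higher and 6.06% lower, and 2902 changes lay above 0. Utx, which encodes a demethylase that removes the Polycomb mark from histone H3, read 167 and 121 with DMSO, 329 and 289.8 after 3 h, 375 and 375 after 6 h, and 181 and 149 after 12 h. It rose 2.39-fold (1.26 ± 0.20, adjusted p = 0.00471). The 6 h pair was the highest of the 4 groups. The gene gpp, which encodes the fly DOT1 methyltransferase, read 234 and 218 with DMSO and 435 and 499.8 at 6 h (0.97 ± 0.18, adjusted p = 0.0095). Iswi, a nucleosome remodelling ATPase gene, rose by 0.43 ± 0.10, Scm, a Polycomb-group gene, by 0.52 ± 0.14, and E(bx), chosen for naming after its value was seen, by 0.46 ± 0.13. The last 4 calls all ended without 6 h replicate 2 (adjusted p 0.0573 to 0.123), and some also without either DMSO array, either 3 h array, 6 h replicate 1 or 12 h replicate 2 (up to 0.253). Without 6 h replicate 2 the list held 1 call.

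Splicing regulators rose in 5 of 27 members and fell in 2, at a median of 0.10 (-0.07 with median centring, which called 1 higher and 5 lower), and 0 calls in either direction were left without DMSO replicate 2. The sex determination genes tra and Sxl are both regulators of splicing. For tra the signals were 212 and 198 with DMSO and 379 and 377 at 6 h (0.81 ± 0.15, adjusted p = 0.0106). For Sxl they were 521 and 367 with DMSO and 864 and 640.5 at 6 h (0.73 ± 0.19, adjusted p = 0.0377), and its other probe set rose by 0.68. The RNA-binding protein gene qkr58E-1 rose by 0.61 ± 0.13, and the splicing factor gene SC35 fell by 0.40 ± 0.07, from 8214 and 8692 to 6135 and 6644. These 4 calls all ended without DMSO replicate 2 or 6 h replicate 1 (adjusted p 0.0519 to 0.228), and some also without DMSO replicate 1, 3 h replicate 1, 6 h replicate 2 or either 12 h array (up to 0.074). The remaining calls were glo (0.29), Hrb87F (0.30) and SmD1 (-0.25), named after their values were seen. They all ended without either DMSO array or either 6 h array (adjusted p 0.0654 to 0.274), and some also without either 3 h array (up to 0.0745). Nuclear transport genes rose in 3 of 21 and fell in 1 (3 higher and 3 lower with median centring). For both lists the shares of all genes were 5.58% higher and 6.06% lower. The exportin gene emb read 1207 and 1316 with DMSO and 1887 and 2029 at 6 h (0.63 ± 0.08, adjusted p = 0.00203). A further probe set of emb gave 0.43 (adjusted p = 0.118). RanBPM read 549 and 593 with DMSO and 922 and 870.01 at 6 h (0.63 ± 0.10, adjusted p = 0.0041). The importin gene Tnpo rose by 0.69 ± 0.14, a call that ended without DMSO replicate 2 or either 6 h array (adjusted p up to 0.0998). The nuclear pore gene Nup43 went the other way, at 3517 and 3527 with DMSO, 2112 and 2358 after 3 h, 2211 and 2304 after 6 h, and 5543 and 5388 after 12 h, and fell by 0.64 ± 0.07 (adjusted p = 0.00127).

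Cell cycle lists held 5 calls among 55 genes tested in 2 lists, where 5.58% of all genes were called higher and 6.06% lower, so this count lies near that background. Median centring gave 2 higher and 4 lower of 26 in DNA replication. In DNA replication RPA3, of the single-strand binding protein, read 7161 and 7071 with DMSO and 5176 and 4906 at 6 h. It fell by 0.50 ± 0.07 (adjusted p = 0.00295; 0.0639 without the variance trend), and the flap nuclease gene Fen1 fell by 0.32 ± 0.07. The kinase gene Cdc7, which fires replication origins, read 377 and 386 with DMSO, 675 and 610.1 at 6 h, and 275 and 355 after 12 h. The gene rose by 0.71 ± 0.15. The fly ATM kinase gene tefu read 348 and 333 with DMSO, 712 and 519 at 6 h, and 350.1 and 356 after 12 h. It rose by 0.79 ± 0.16. The calls of Fen1, Cdc7 and tefu all ended without either DMSO array or 6 h replicate 1 (adjusted p 0.0636 to 0.17), and some also without 6 h replicate 2 (up to 0.0701). A further probe set of Cdc7 gave 0.38 (adjusted p = 0.164). Of 29 mitosis genes msps, a microtubule polymerase gene, alone passed (0.51 ± 0.08, adjusted p = 0.00343; 0.0615 without the variance trend). Among 11 apoptosis genes Dark, the fly Apaf-1 gene, rose by 0.66 ± 0.17 and p53 fell by 0.34 ± 0.07. These 2 calls all ended without either DMSO array or either 6 h array (adjusted p 0.0519 to 0.182), and some also without either 3 h array (up to 0.0538). Of 24 genes of actin, adhesion and polarity Arpc4, an Arp2/3 complex gene, read 3465 and 3450.5 with DMSO and 2476 and 2427 at 6 h. The gene fell by 0.49 ± 0.06 (adjusted p = 0.00194; 0.0546 without the variance trend), the 1 fall of a list with 3 rises (1 higher and 3 lower with median centring). Beside scrib, rhea, the talin gene, rose by 0.44 ± 0.08, and the polarity kinase gene par-1 by 0.62 ± 0.15. For par-1 a second probe set gave -0.13, and one more, readable on 1 of the 6 h arrays, rose by 0.58 ± 0.16 (adjusted p = 0.0489). These 2 calls all ended without DMSO replicate 2 or 6 h replicate 1 (adjusted p 0.0594 to 0.155), and some also without DMSO replicate 1, either 3 h array or 6 h replicate 2 (up to 0.162).

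Detoxification genes moved singly. Among all genes 5.58% were called higher and 6.06% lower. Of 27 tested cytochrome P450 genes 3 rose and 0 fell by limma (4 higher and 0 lower at an unadjusted p under 0.05), with a median of 0.09 that was -0.05 with quantile normalization and -0.08 with median centring. Cyp6a8 read 1126 and 1009 with DMSO and 1548 and 1652 at 6 h (0.57 ± 0.08, adjusted p = 0.00312; 0.0519 without the variance trend). For Cyp6a23 the signals were 256 and 246 with DMSO and 461 and 479 at 6 h (0.84 ± 0.16, adjusted p = 0.0119). Cyp6d5 read 89.2 and 112 with DMSO, 240.5 and 213 at 6 h, and 74.3 and 79.8 after 12 h (1.01 ± 0.23, adjusted p = 0.0229). The last 2 calls all ended without either DMSO array or either 6 h array (adjusted p 0.0594 to 0.127). Of 26 glutathione S-transferase genes 4 rose and 2 fell (median 0.02, -0.14 with median centring, which called 3 higher and 4 lower). GstE1 read 4479 and 4459 with DMSO, 4143 and 4223 after 3 h, 6261 and 6139 after 6 h, and 5114 and 4592 after 12 h, with the 6 h arrays above all others (0.47 ± 0.07, adjusted p = 0.00329; 0.0681 without the variance trend). GstD3 rose by 0.54 ± 0.07 (adjusted p = 0.00212; 0.0576 without the variance trend) and GstT4 by 0.72 ± 0.12, while GstD9, from 2849 and 2922 to 1854 and 1941, fell by 0.60 ± 0.07 (adjusted p = 0.0016). GstD genes lie in a cluster of close relatives, and probe sets may read more than 1 of them. GstE3 (0.55) and GstO1 (-0.39), named after their values were seen, also passed. The calls of GstT4, GstE3 and GstO1 all ended without DMSO replicate 2 (adjusted p 0.0533 to 0.177), and some also without DMSO replicate 1, either 3 h array or either 6 h array (up to 0.19).

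**Figure D4:**
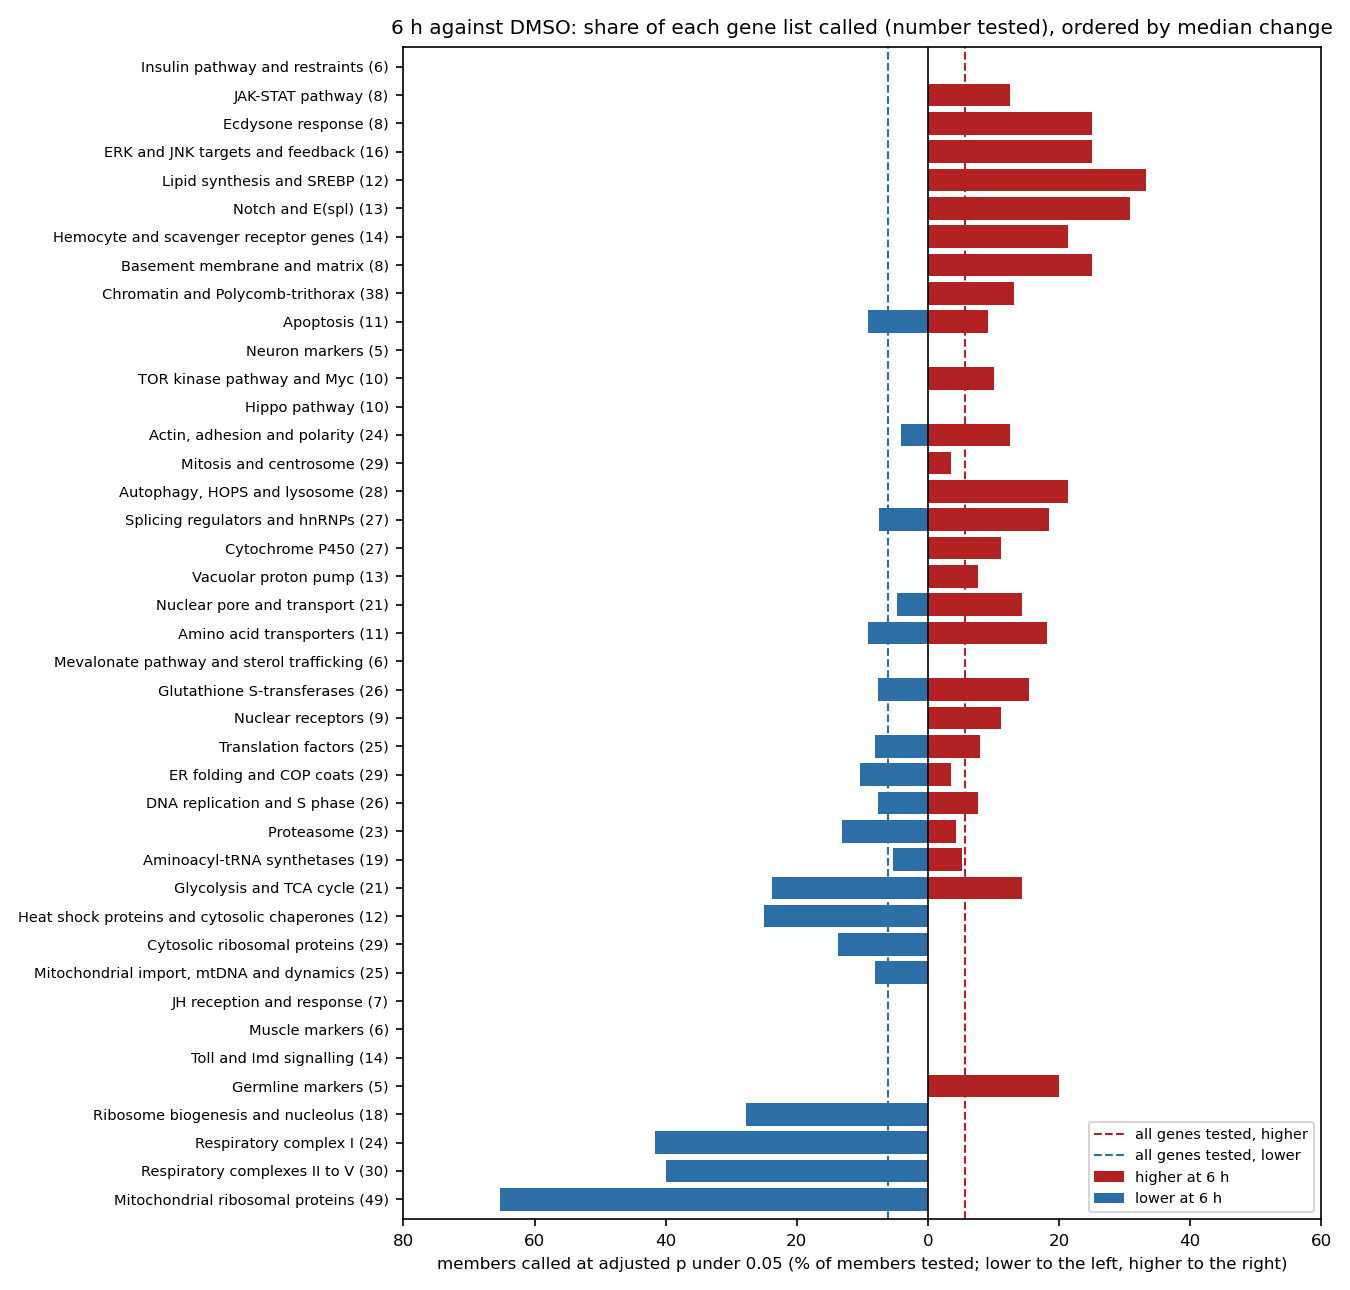
Share of the tested members of each gene list (number in brackets) called lower (blue, left) or higher (red, right) at 6 h against DMSO, in percent, ordered by median change; dashed lines give the share of all 5268 genes, 6.06% lower and 5.58% higher. The fat body marker list, with 4 tested members, was not drawn. The mitochondrial ribosomal protein list has the longest blue bar with 32 of 49, and the lipid synthesis list the longest red bar with 4 of 12; bars of small lists rest on 1 or 2 genes.

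The 6 h arrays were set against the 3 h arrays to ask what differed between these exposures, a comparison in which no DMSO array enters the difference. Of 6489 probe sets 1 passed (0.0154%), which was higher at 6 h, and 0 were lower by limma, while 377 were higher and 395 lower at an unadjusted p under 0.05. It was that of E(spl)mbeta-HLH, with signals of 553 and 601 with DMSO, 244 and 239.9 after 3 h, 807 and 968 after 6 h, and 405 and 416 after 12 h. The 3 h arrays were the lowest of the study for this gene and the 6 h arrays the highest, and it was 3.41-fold higher at 6 h than at 3 h (1.77 ± 0.13, adjusted p = 0.00127). The call passed without each array in turn (adjusted p up to 0.0273) and ended with only the 3 h and 6 h arrays in the fit (0.0591). Other named genes with large values did not pass, among them CG32687 at 2.09 ± 0.28, adjusted p = 0.0645, CG3517 at 1.10 ± 0.33, adjusted p = 0.242, and smal at -1.09 ± 0.25, adjusted p = 0.166. Quantile normalization gave 12 calls, and a filter at the 60th percentile gave 9. A low count from 2 arrays a group does not show that the 3 h and 6 h levels were alike.

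The 12 h arrays were set against the 6 h arrays to ask whether the levels at 6 h lasted. By limma 800 probe sets (12.3%) differed, 408 higher at 12 h (6.29%) and 392 lower (6.04%), with a split of 446 and 275 under median centring, and 419 differed without 6 h replicate 1. By gene, 6.49% were higher and 5.81% lower at 12 h. This comparison shares the 6 h arrays with 6 h against DMSO, so each gene's own values are given side by side and no joint count is read as a result. PCB was at 392 and 402 at 6 h and 1112 and 1756 at 12 h (1.75 ± 0.19, adjusted p = 0.000567), with the 12 h arrays apart from each other and below DMSO. ND-B12 rose to 5765 and 5738, above its DMSO signals of 3943 and 3313 (1.82 ± 0.10, adjusted p = 1.5e-05). ND-B14.5A, another complex I subunit gene, read 4489 and 4439 with DMSO, 3203 and 3627 at 6 h, and 10694 and 10748 after 12 h, and at 12 h lay far above DMSO (1.65 ± 0.07, adjusted p = 1.5e-05). At 6 h it fell by 0.39 ± 0.07, a call that ended without either DMSO array or 6 h replicate 1 (adjusted p up to 0.0717). CG3603 was higher at 12 h by 1.73 ± 0.20, adjusted p = 0.000825. AgmNAT, of the arylalkylamine N-acetyltransferase family, read 119 and 85.8 with DMSO, 55.2 and 47.6 at 6 h, and 614 and 444 after 12 h (2.84 ± 0.27, adjusted p = 0.000279). CG12849 read 17.8 and 27.7 with DMSO, 71.4 and 93.8 after 3 h, 17.6 and 16.5 after 6 h, and 157 and 134 after 12 h (2.02 ± 0.32, adjusted p = 0.00372).

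The largest falls from 6 h to 12 h were on 6 probe sets of 5 genes. CG32687 read 142 and 132 with DMSO, 23.6 and 18.9 after 3 h, 181 and 164 after 6 h, and 30.2 and 35.8 after 12 h on 1 probe set. It was low at 3 h and 12 h and near DMSO at 6 h (12 h against 6 h -1.77 ± 0.28, adjusted p = 0.00374), while the second probe set gave -1.69 (adjusted p = 0.0463). The deacetylase-family gene Cda4 read 177 and 334 with DMSO, 439.7 and 359 at 6 h, and 73.5 and 124 after 12 h (-1.80 ± 0.40, adjusted p = 0.0185). Gnpat, an enzyme gene of ether lipid synthesis, read 74.4 and 112 with DMSO, 126 and 128 at 6 h, and 24.5 and 16.5 after 12 h (-1.75 ± 0.31, adjusted p = 0.00685). CG30158 read 65.4 and 33.1 with DMSO, 82 and 115 at 6 h, and 7.83 and 24.1 after 12 h (-1.61 ± 0.40, adjusted p = 0.0305). The protease gene Phae1 read 286 and 334 with DMSO, 386 and 355 at 6 h, and 162 and 67.1 after 12 h (-1.59 ± 0.29, adjusted p = 0.00817). None of these 5 genes had differed from DMSO at 6 h by the test. The calls of Cda4 and CG30158 ended without either 6 h array or 12 h replicate 1 (adjusted p up to 0.116 and 0.146). That of Phae1 ended without 6 h replicate 1 (0.0598), and that of the second CG32687 probe set without any DMSO or 6 h array or 12 h replicate 2 (up to 0.2). The other probe sets of Cda4 and CG30158 gave -0.39 and 0.63 and did not pass.

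Lists of the ribosomes and the respiratory chain lay higher at 12 h than at 6 h, and other lists with falls at 6 h did not all do so. The same 6 h arrays enter this contrast and 6 h against DMSO. A move back towards DMSO was thus favoured in advance for genes or lists picked out by their 6 h values. How much of each move below comes from that was not tested. Mitochondrial ribosomal proteins were higher in 25 of 49 by limma (median 0.36), complex I in 10 of 24 (median 0.11) and complexes II to V in 13 of 30 (median 0.28). Against DMSO at 12 h their medians were 0.04, -0.08 and 0.07. Cytosolic ribosomal proteins were higher in 15 of 29 (median 0.32), with RpL23 at 37189 and 32589 against 18088 and 18981 at 6 h (0.91 ± 0.08, adjusted p = 0.0002) and Rack1, a protein of the small ribosomal subunit, at 0.36 ± 0.09, adjusted p = 0.0249. Genes of endoplasmic reticulum folding and vesicle coats were lower at 12 h in 7 of 29 and higher in 2 (median -0.23), and glutathione S-transferases lower in 7 of 26 and higher in 1 (median -0.24). Medians were -0.10 for translation factors, -0.11 for aminoacyl-tRNA synthetases, -0.06 for mitochondrial import and -0.03 for glycolysis and the TCA cycle, against -0.03 for all genes. Lipid synthesis genes were lower at 12 h in 4 of 12, FASN1 by -0.85 (adjusted p = 0.000161) and Lsd-2 by -0.61. Of the strongest rises at 6 h, lncRNA:CR42862 (-0.96), bun (-0.83) and fok (-0.93) were lower at 12 h and still above DMSO by the test, where 2.7% of all probe sets were higher at 12 h than with DMSO. Hml (-0.84 ± 0.06, adjusted p = 7.32e-05) and Hsp68 (0.98 ± 0.09, adjusted p = 0.000183) were called in opposite directions at 12 h, towards their DMSO signals. Values for sty (-0.23), Pvf2 (-0.03) and pAbp (-0.02) did not pass, and these 3 genes remained above DMSO at 12 h by the test.

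**Figure D5:**
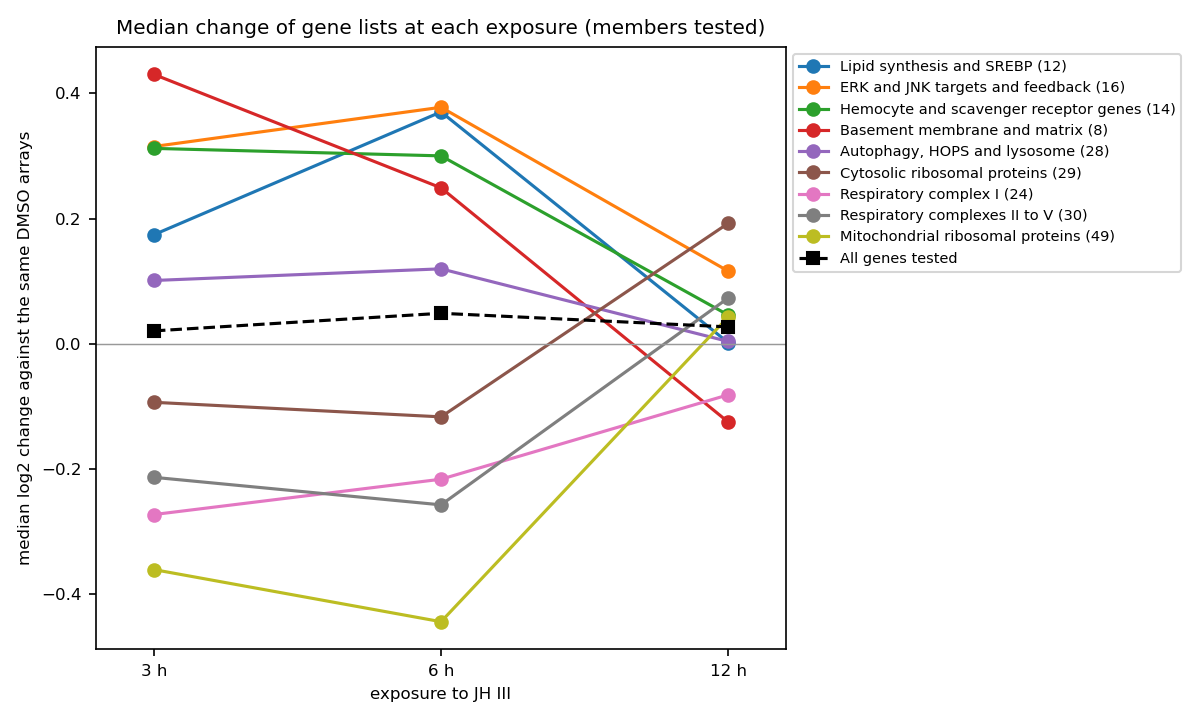
Median log2 change against the same 2 DMSO arrays at 3, 6 and 12 h for 9 gene lists (coloured lines, members tested in brackets) and for all 5268 genes (black squares, dashed). The mitochondrial ribosomal protein line has its own lowest point at 6 h with -0.44 and lies at 0.04 at 12 h. The lipid synthesis line has its own highest point at 6 h with 0.37, beside 0.38 for the ERK and JNK line, and lies at 0.00 at 12 h. The 3 times share their DMSO arrays.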

How the data were processed

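RNA of L57 cells had been hybridised to Drosophila Genome arrays, 1 per sample, and the authors deposited MAS5 signal, a linear intensity per probe set (per the submitters' processing notes; the version is not given in the sources used here). Background correction and probe summary could not be redone from these values. The gene lists and the comparison were chosen with earlier results of these data known. Signals on 6 h replicate 2 that lay in the stretches of zeros, above 1000000 or below 0.001 were set to missing, array controls were left out, and probe sets under the 40th percentile of the mean log2 value (signal 43.7) were not tested. Differences were fitted on log2(signal + 25) with limma 3.58.1 in R 4.3.3 (4 groups, variance trend, 4 residual degrees of freedom) and adjusted by Benjamini-Hochberg over all 6489 probe sets. The scripts were tested on simulated data. Symbols came from the platform annotation, updated through the RefSeq gene table. A gene with several probe sets was represented by the brightest in list counts. Genes were named by rule, namely the 15 largest called rises and falls at 6 h against DMSO and the 6 largest each way at 6 h against 3 h and 12 h against 6 h, all without overlap of groups, the 4 called members of each list with the smallest p, and all tested members of the JH list. Replicate numbers in the titles were checked for pairing. Deviations of samples that share a number correlated at -0.023 to 0.037, so no shift shared by number was seen and no block was used in the main fit. With 2 arrays a group this cannot show that the samples were not handled as pairs. Alternatives covered the added constant, scaling, filter, variance trend, groups in the fit, treatment of the unreadable values, the replicate block and leaving out each array. The number of arrays limits the precision. No sequences were used here.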

Additional observations from a re-analysis of the deposited data

Results flagged for a closer look

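The 6 h effect was set against the effects at the neighbouring times by a test of the difference itself, the contrast of 6 h with 3 h and with 12 h in the same limma fit. Against 3 h it differed for 1 probe set, that of E(spl)mbeta-HLH (1.77 higher at 6 h on the log2 scale). Against 12 h it differed for 800 probe sets. Among the named genes PCB (1.75), ND-B12 (1.82), CG3603 (1.73), AgmNAT (2.84), CG12849 (2.02) and ND-B14.5A (1.65) were higher at 12 h than at 6 h. Lower at 12 h were Cda4 (-1.80), both probe sets of CG32687 (-1.77 and -1.69), Gnpat (-1.75), CG30158 (-1.61) and Phae1 (-1.59). Another 81 named probe sets also differed between 12 h and 6 h, where 12.3% of all probe sets did. Of the 145 named probe sets 130 were called at 6 h against DMSO, and the same 6 h arrays enter this contrast. Naming therefore favoured such differences, and the count of 81 is not a result about these genes. With 2 arrays a group no array could be tested for standing apart within its group.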

How the results depend on the processing

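For 6 h against DMSO the count of 756 called probe sets was 196 without the variance trend and 1 with the zeros of 6 h replicate 2 kept as values, and 267 to 814 with 1 array left out. It was 1007 (222 higher, 785 lower) with median centring, 693 with quantile normalization, 593 with no filter, 887 with the filter at the 60th percentile, 659 with only the DMSO and 6 h arrays in the fit, and 1133 with all probe sets and unreadable values missing. For 6 h against 3 h the count of 1 was 12 with quantile normalization, 9 with the filter at the 60th percentile, 2 without the variance trend, 5 with all probe sets and unreadable values missing, 0 with only the 3 h and 6 h arrays, 0 with the zeros kept, and 1 to 2 with 1 array left out. For 12 h against 6 h the count of 800 was 283 without the variance trend, 437 with only the 6 h and 12 h arrays, 106 with the zeros kept, and 419 to 648 with 1 array left out. With the replicate block the counts were 665, 1 and 737. The block ended the call for 14 of 158 tests of named probe sets, taken over these comparisons together. Adding 5 or 100 in place of 25 gave 749 and 750 calls at 6 h. Among named values mnd, at -0.17 with all arrays, ran from -0.42 without 6 h replicate 1 to 0.0868 without 6 h replicate 2. The value of tai, -0.09 with all arrays, ran from -0.25 without 6 h replicate 2 to 0.0635 without 6 h replicate 1, and none of these passed. The cause of these shifts was not tested. Detection calls were not used here, and the constant of 25 limits what can be read from dim probe sets.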

Other observations

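A further 2611 probe sets bright enough to test were readable on 6 h replicate 1 and not on replicate 2, so their 6 h level rests on 1 array whose spread is assumed to be that of the other groups. By limma 337 (12.9%) differed from DMSO, 193 higher and 144 lower. The genes below were chosen after their values were seen. Paip2, which restrains the poly(A)-binding protein, read 734 and 773 with DMSO and 2098 on 6 h replicate 1 (1.45 ± 0.11, adjusted p = 0.000459). ImpL2, which encodes an insulin-binding secreted protein, read 1606 and 1629.6 with DMSO and 4034 on 6 h replicate 1 (1.30 ± 0.11, adjusted p = 0.000569). Imp, an RNA-binding protein gene, and Axn, axin, of the Wnt pathway, rose by 1.25 ± 0.13 and 1.18 ± 0.19. The small heat shock protein gene Hsp26 read 6801 and 6883 with DMSO and 2157 on 6 h replicate 1 (-1.65 ± 0.08, adjusted p = 7.53e-05) and Hsp27 3205 and 3493 with DMSO and 1928 on 6 h replicate 1 (-0.79 ± 0.11, adjusted p = 0.00369), whereas Hsf, the heat shock factor gene, read 568 and 548 with DMSO and 853 on 6 h replicate 1 (0.59 ± 0.16, adjusted p = 0.0461). The chaperone gene mrj, of the DnaJ family, was also higher, at 719 and 716 with DMSO and 1113 on 6 h replicate 1 (0.62 ± 0.14, adjusted p = 0.0244).

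Among genes known for their response to JH, JhI-26 read 573 and 587 with DMSO and 1123 on 6 h replicate 1 (0.92 ± 0.12, adjusted p = 0.00275) and JhI-21 1328 and 1625 with DMSO and 2429 on 6 h replicate 1 (0.72 ± 0.19, adjusted p = 0.0397). Kr-h1 read 192 and 193 with DMSO and 251 on 6 h replicate 1 and did not pass (0.34 ± 0.33, adjusted p = 0.551). Other members of the JH list on that array gave 0.61 for ftz-f1, 0.46 for Nup358 and 0.11 for usp. None of them passed, nor did br, given above. In lipid synthesis Acsl, an acyl-CoA synthetase gene, rose by 0.88 ± 0.12, Pect, of phosphatidylethanolamine synthesis, by 0.86 ± 0.11, and Fpps, the farnesyl diphosphate synthase gene of the mevalonate pathway, by 0.71 ± 0.10. The laminin genes LanA and LanB2 rose by 0.56 ± 0.11 and 0.46 ± 0.09, the GATA factor gene srp of blood cells by 0.76 ± 0.15, the kinase gene Akt by 0.70 ± 0.16 and the autophagosome gene Atg8a by 0.64 ± 0.07. The mitochondrial ribosome gene mRpL54 and the complex I gene ND-PDSW fell by 0.91 ± 0.14 and fell by 0.72 ± 0.09.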
